A study of Mus musculus with 12 samples.

Results

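The classic YAP/TAZ target genes are 10 genes whose mRNA is commonly read as an output of the transcriptional co-activators YAP and TAZ: *Ctgf*, *Cyr61*, *Ankrd1*, *Amotl1*, *Amotl2*, *Axl*, *Crim1*, *Ajuba*, *Nuak2*, and *F3*. They were picked by symbol, by a rule that used no measured value but was set with earlier results of these data known, and all 10 were found among the 54532 genes measured. RNA came from whole distal colon and whole urinary bladder of 9 male mice, in 12 libraries with 3 per tissue and genotype. Every mouse carried floxed *Yap1* and *Wwtr1* (the TAZ gene), and every mouse received 1 mg tamoxifen per day in 5 injections. The knockout mice (Y/T KO) also carried Myh11-CreERT2, a tamoxifen-inducible recombinase driven by the smooth muscle myosin promoter, which sits on the Y chromosome. Control mice (Ctrl) lacked Cre, so deletion of the floxed genes and presence of the recombinase cannot be told apart. All were 5 to 7 weeks old, and tissue was taken on day 7 after the first injection. Ctrl colon came from mice 788, 786, and 787 and Y/T KO colon from mice 759, 783, and 780, whereas Ctrl bladder came from mice 784, 785, and 788 and Y/T KO bladder from mice 782, 783, and 780. Mice 788, 783, and 780 thus gave both tissues.

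YAP and TAZ do not bind DNA themselves. When the Hippo kinases MST and LATS phosphorylate them they are held in the cytoplasm, and when this brake is released, for instance by stretch, cell spreading, or actin polymerization, they enter the nucleus and act through TEAD transcription factors bound near their targets. Many of the classic targets feed back on the pathway or act on the matrix and on neighboring cells, and in smooth muscle the same actin cues also drive serum response factor (SRF) and its coactivators.

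Levels are given as TPM, the length-corrected share of a library's transcripts, rescaled among the 6 libraries of a tissue. Sums of marker genes and of immediate-early genes, and levels of genes that overlap a target, are TPM as deposited, without rescaling. Differences are on the log2 scale of rescaled TPM + 0.1, which understates the change of low genes, and were tested with limma and Benjamini-Hochberg adjustment over all genes that reached 0.5 TPM in 3 or more libraries of the tissue. A gene was called at an adjusted p under 0.05. With 3 libraries against 3, an exact permutation test of a single gene cannot go below p = 0.10.

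Aligned sequence ran from 2.81 to 3.94 gigabases per library (median 3.46). Summed urothelial markers (6 genes) were 4376 to 5761 TPM in the bladder libraries and 18.7 to 31.6 in the colon libraries, and 6 colon epithelial markers summed to 1780 to 1897 TPM in Ctrl colon, 1546 to 1569 in Y/T KO colon, and 131 to 163.1 in bladder, as the tissue labels say. The floxed genes checked the genotype labels only in part. Whole tissue also holds cells without Cre, whose part in these levels was not tested. *Yap1* was 50.1 ± 4.50 TPM in Ctrl colon and 44.3 ± 3.42 in Y/T KO colon (SD, n = 3; limma adjusted p = 0.697). In bladder *Yap1* was 102.5 ± 3.64 and 70.5 ± 1.94, with no overlap between genotypes (limma adjusted p = 0.0625, or 0.0459 with all 12 libraries in 1 fit and 0.0460 with the mouse as a block in that fit). *Wwtr1* was 18.04 ± 1.24 and 20.5 ± 2.61 TPM in colon and 48.7 ± 14.3 and 55.9 ± 7.61 in bladder. Its mean thus was higher in Y/T KO in both tissues, and neither difference passed the test. Summed smooth muscle markers (7 genes) were lower in every Y/T KO library, at 4912 to 5777 against 7476 to 8225 TPM in colon and 16550 to 30410 against 34860 to 45430 TPM in bladder. In whole tissue, fewer smooth muscle cells and less RNA per cell cannot be told apart. The Ctrl bladder of mouse 785 stood apart from the other bladder libraries in several of the classic targets, so the bladder differences of the targets and the bladder medians of the gene lists are given with and without it.

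*Ankrd1* was the classic target that separated the genotypes in both tissues. Its mean in Y/T KO was 0.0581 of that in Ctrl in colon and 0.00684 of it in bladder, or 0.0405 without the Ctrl bladder of mouse 785. Its difference passed the test in colon and missed it in bladder, and none of the other 9 targets passed in either tissue. In colon *Ankrd1* entered the test only through the Ctrl libraries, in which it was high. Without a filter on low values that call was lost (limma adjusted p = 0.0743). *Ajuba* also was lower in every Y/T KO colon library than in every Ctrl colon library, whereas the best known secreted targets, *Ctgf* and *Cyr61*, overlapped between genotypes in both tissues.

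**Figure D1:**
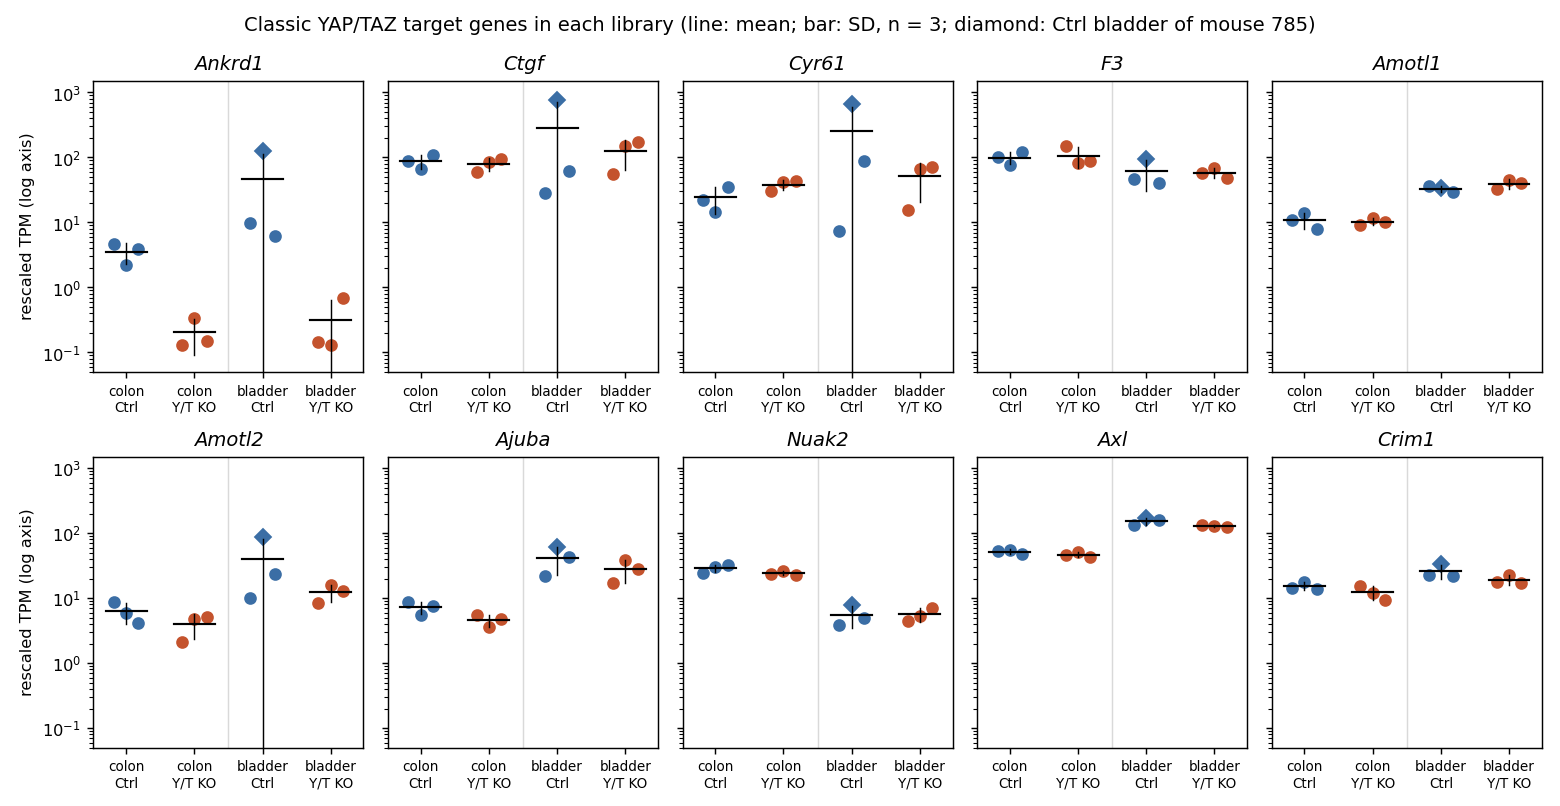
Rescaled TPM (log axis) of the 10 classic targets in each of the 12 libraries, by tissue and genotype. Points are libraries (blue, Ctrl; red, Y/T KO), the line is the mean, the bar is the SD (n = 3, cut at the lower edge of the axis where mean minus SD falls below it), and the diamond is the Ctrl bladder of mouse 785. *Ankrd1* is at most 0.685 TPM in all 6 Y/T KO libraries and at least 2.20 TPM in all 6 Ctrl libraries, and the diamond is the highest bladder point for every gene but *Amotl1*.

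*Ankrd1* (ENSMUSG00000024803, GRCm38 chr19:36111965-36119844, minus strand) encodes an ankyrin repeat protein found in the nucleus and in sarcomeres that is induced by stretch in muscle. In Ctrl colon its rescaled level was 4.63, 2.20, and 3.87 TPM in mice 788, 786, and 787. In Y/T KO colon it was 0.128, 0.340, and 0.152 TPM in mice 759, 783, and 780. Every knockout colon thus lay far below every control colon, at a mean of 0.207 ± 0.116 against 3.57 ± 1.25 TPM (SD, n = 3 each). The fitted difference was -3.58 ± 0.43 (SE; 95% interval -4.57 to -2.58; limma adjusted p = 0.0380). It was the only classic target called in the colon, where 0.08% of the 17500 genes tested were called lower and 0.0571% were called higher. *Ankrd1* reached 0.5 TPM only in the Ctrl colon libraries and so entered the test through the group in which it was high. Without a filter on low values its adjusted p was 0.0743, with all 12 libraries in 1 fit it was 0.156, and with the mouse as a block in that fit it was 0.152. The limma call was also lost without Y/T KO mouse 783 (adjusted p = 0.102) or 780 (adjusted p = 0.134), and without any Ctrl colon library *Ankrd1* no longer passed the filter.

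The same gene was 9.76, 124.9, and 6.11 TPM in the Ctrl bladders of mice 784, 785, and 788. Its level was 0.147, 0.131, and 0.685 TPM in the Y/T KO bladders of mice 782, 783, and 780. The genotypes did not overlap here either, and mouse 785 alone lay 12.8-fold above the next control. Mean levels were 46.9 ± 67.6 and 0.321 ± 0.315 TPM, and the fitted difference was -5.79 ± 1.19 (SE; 95% interval -8.68 to -2.91; unadjusted p = 0.00254 and adjusted p = 0.141 in limma's fit of all genes). With all 12 libraries in 1 fit it was called (limma adjusted p = 0.0324), and adding the mouse to that fit as a block gave 0.0339. Leaving out mouse 785 gave -4.46 (limma adjusted p = 0.189), so the direction did not rest on that library. In the bladder 0.219% of 18237 genes were called lower and 0.0823% higher, and none of the 10 classic targets was among them (1 at an unadjusted p under 0.05, *Ankrd1*; 8.2% of all genes tested fell below that p in the lower direction). Smooth muscle markers moved with *Ankrd1* in both tissues, as given above. In colon the epithelial markers (values above) and pancreatic acinar markers (6 genes, 0 to 0.252 TPM in Y/T KO against 5.47 to 90.2 in Ctrl) also were lower in every Y/T KO library, and glial markers (4 genes, 14.1 to 18.2 against 11.7 to 13.6 TPM) were higher. In bladder the neuronal markers (5 genes) summed to 452.4 to 568.5 TPM in Y/T KO and 336.8 to 441 in Ctrl, as deposited. The gap between Ctrl mouse 784 (size factor 0.978) and Y/T KO mouse 780 (size factor 1.01) closes with rescaling, and the genotypes then overlap. The part of these markers in the result was not tested. Markers of striated muscle, in which *Ankrd1* is known to be expressed, overlapped between genotypes in both tissues, and their part was not tested either. Their sum (6 genes) was 10.6 to 12.1 TPM in Ctrl colon and 11.5 to 18.8 in Y/T KO colon, and 108.3 to 482.2 TPM in Ctrl bladder and 125.4 to 3538 in Y/T KO bladder.

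TEAD factors recognize GGAATG, and windows from 250 bases before to 50 bases after the transcription start (RefSeq, GRCm38.p6) were read for 8 of the 10 classic targets, with *Ctgf* and *Nuak2* not read. These letters, on either strand (CATTCC on the other), stood in 6 of the 8 windows, against 14.7% of all 32851 RefSeq windows of 300 bases. *Ankrd1* and *Ajuba* held 2 matches each, and *Cyr61*, *Amotl2*, *Axl*, and *Crim1* held 1 each. A link between matches and the difference between genotypes was not tested. *Amotl1* and *F3* held none. The windows of *Amotl1* (chr9:14614951-14615250) and *Amotl2* lay inside the listed gene spans, at RefSeq starts downstream of the listed 5′ ends, which were not read. The CArG box, the SRF motif, was found in 0 of the 8 windows (1.63% of all windows), and the AP-1 motif TGANTCA was found only in *F3* (7.81% of all windows), with 2 matches. Upstream sequences are shown for the pair with 2 TEAD matches and for *Cyr61* and *Amotl2*, which with *Ankrd1* were farthest above the other controls in mouse 785 among the targets read, each as the 250 bases before the start, 5′ to 3′ on the gene's strand, with TEAD matches in capitals. Their positions are chr19:36119845-36120094 (minus) for *Ankrd1*, chr14:54577662-54577911 (minus) for *Ajuba*, chr3:145649986-145650235 (minus) for *Cyr61*, and chr9:102717554-102717803 (plus) for *Amotl2*.
Ankrd1: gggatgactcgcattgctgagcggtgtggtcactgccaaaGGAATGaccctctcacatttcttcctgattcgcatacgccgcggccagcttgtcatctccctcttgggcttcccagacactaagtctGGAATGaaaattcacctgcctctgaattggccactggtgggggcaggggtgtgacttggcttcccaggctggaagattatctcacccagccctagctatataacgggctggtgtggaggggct
Ajuba: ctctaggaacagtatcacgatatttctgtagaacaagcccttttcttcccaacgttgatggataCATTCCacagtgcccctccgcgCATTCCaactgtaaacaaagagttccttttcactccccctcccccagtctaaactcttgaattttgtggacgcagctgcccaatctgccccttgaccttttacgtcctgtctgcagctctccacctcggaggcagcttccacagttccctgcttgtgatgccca
Cyr61: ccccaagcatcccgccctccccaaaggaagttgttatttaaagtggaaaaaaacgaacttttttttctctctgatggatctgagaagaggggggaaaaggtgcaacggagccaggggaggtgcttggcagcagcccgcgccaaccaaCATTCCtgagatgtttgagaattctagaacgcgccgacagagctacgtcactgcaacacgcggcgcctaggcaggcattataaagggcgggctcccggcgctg
Amotl2: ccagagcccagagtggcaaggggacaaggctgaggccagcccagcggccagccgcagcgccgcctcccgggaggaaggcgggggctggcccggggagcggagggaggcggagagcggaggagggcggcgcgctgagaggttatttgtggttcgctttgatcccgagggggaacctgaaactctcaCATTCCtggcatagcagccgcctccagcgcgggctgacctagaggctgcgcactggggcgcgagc
The *Ankrd1* matches began 210 and 123 bases upstream of the start, those of *Ajuba* 186 and 164, that of *Cyr61* 103, and that of *Amotl2* 65. A match of these letters describes the sequence and does not show binding.

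**Figure D2:**
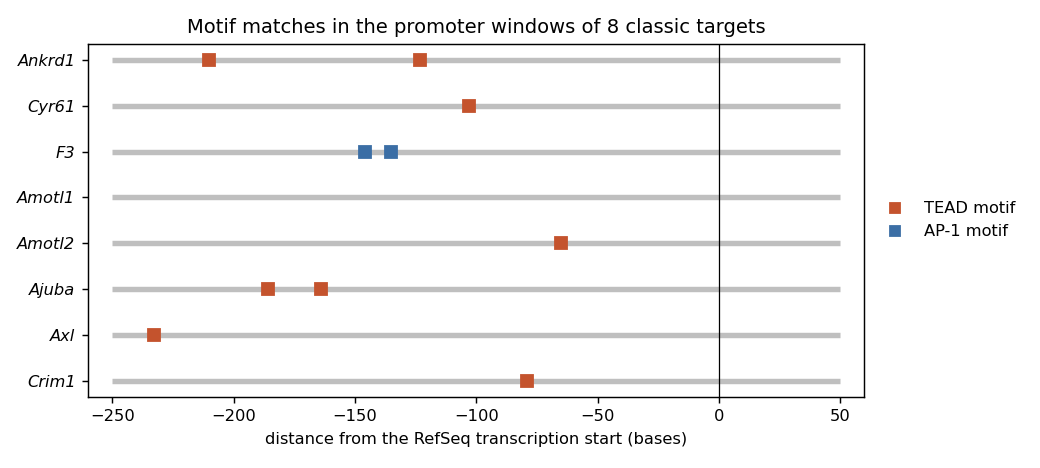
Matches to the TEAD motif (red) and the AP-1 motif (blue) in the promoter windows of 8 classic targets, by distance in bases from the RefSeq transcription start (vertical line). Gray bars mark the window, from 250 bases upstream to 50 bases downstream, and all TEAD matches lie between 233 and 65 bases upstream.

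*Ctgf* and *Cyr61* encode secreted CCN matricellular proteins that bind integrins and growth factors and are the targets most often assayed in cultured cells. *Ctgf* (ENSMUSG00000019997, chr10:24595442-24598683, plus strand) was 88.2, 67.1, and 110.9 TPM for the Ctrl colons, whereas the Y/T KO colons had 60.8, 83.7, and 95.7 TPM. These ranges overlapped almost fully, with means of 88.7 ± 21.9 and 80.1 ± 17.8 TPM and a fitted difference of -0.14 (95% interval -0.69 to 0.40; limma adjusted p = 0.859). The lower bound of this interval lies far from the -3.58 of *Ankrd1* in the same libraries. That value depends on the pseudocount and was -2.48 with 0.5 TPM and -1.88 with 1 TPM. In bladder *Ctgf* was 28.7, 768.3, and 61.5 TPM in Ctrl mice 784, 785, and 788 and 56.7, 148.6, and 171.4 TPM in the knockout mice 782, 783, and 780. Here the Ctrl libraries enclosed all 3 Y/T KO libraries, and the other 2 controls lay below 2 of the 3 knockouts. The fitted difference was 0.03 (95% interval -3.09 to 3.15) with mouse 785 and 1.43 (limma adjusted p = 0.552) without it. *Gm15270*, which lies on the opposite strand across *Ctgf*, was listed at 0.767 to 5.12 TPM, and whether the authors' quantification used strand is not stated.

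*Cyr61* (ENSMUSG00000028195, chr3:145646976-145649981, minus strand) was 22.5, 14.5, and 35.8 TPM among Ctrl colons, and the Y/T KO colons gave 30.8, 41.3, and 42.8 TPM. Mice 783 and 780 of the knockouts lay above all controls and mouse 759 did not, and the fitted difference was 0.74 (95% interval -0.00 to 1.48; limma unadjusted p = 0.0501, adjusted p = 0.514). No other classic target had a larger positive difference in colon. In bladder *Cyr61* was 7.45, 657.5, and 89.6 TPM for the Ctrl bladders, whereas the Y/T KO bladders had 15.7, 66.2, and 72.3 TPM. The Ctrl group held both the lowest and the highest of the 6 bladder libraries, and the difference turned from -0.85 (95% interval -5.06 to 3.36) to 0.70 (limma adjusted p = 0.892) when mouse 785 was left out.

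*F3* (ENSMUSG00000028128, chr3:121723537-121735048, plus strand) encodes tissue factor, the receptor for factor VII that starts coagulation. It was 100.7, 77.6, and 120.3 TPM for the Ctrl colons, whereas the Y/T KO colons had 151.5, 81.4, and 88.5 TPM. The bladder values were 45.9, 96.1, and 40.8 TPM among Ctrl bladders, and the Y/T KO bladders gave 57.4, 70.1, and 48.4 TPM. Genotypes overlapped in both tissues, and the fitted differences were 0.07 (95% interval -0.55 to 0.69) in colon and 0.04 (95% interval -0.77 to 0.85) in bladder, with limma adjusted p-values of 0.945 and 0.970. Without mouse 785 the bladder difference was 0.42 (limma adjusted p = 0.542).

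*Amotl1*, *Amotl2*, *Ajuba*, and *Nuak2* act on the Hippo pathway itself. *Amotl1* and *Amotl2* are angiomotin family scaffolds that bind YAP, AJUBA is a LIM protein that restrains LATS, and NUAK2 is an AMPK-related kinase. *Ajuba* (ENSMUSG00000022178, chr14:54567472-54577558, minus strand) was 8.58, 5.53, and 7.59 TPM among Ctrl colons, and the Y/T KO colons gave 5.44, 3.56, and 4.86 TPM. All 3 knockouts lay below all 3 controls, though mouse 759 of the knockouts lay just below mouse 786 of the controls. The fitted difference was -0.63 ± 0.26 (SE; 95% interval -1.22 to -0.04; limma unadjusted p = 0.0385, adjusted p = 0.492), so it did not pass the test across all genes. *Ankrd1* and *Ajuba* thus made up the 2 of 10 classic targets with an unadjusted p under 0.05 in colon and the 2 of 10 without overlap, where 4.59% of all genes tested were lower at that p and 7.87% were lower without overlap. No classic target was higher without overlap in colon, against 8.22% of all genes. In bladder *Ajuba* was 21.7, 60.9, and 43.3 TPM for the Ctrl bladders, whereas the Y/T KO bladders had 16.9, 38.8, and 28.4 TPM. The ranges overlapped, and the difference was -0.54 (95% interval -1.64 to 0.56; limma adjusted p = 0.617) with mouse 785 and -0.21 without it. Of the 10 classic targets only *Ankrd1* was lower without overlap in bladder and none was higher, against 11.4% and 10.6% of all genes.

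*Amotl2* (ENSMUSG00000032531, chr9:102716672-102733418, plus strand) was 8.73, 5.90, and 4.22 TPM for the Ctrl colons, whereas the Y/T KO colons had 2.11, 4.71, and 5.16 TPM. In bladder it was 10.1, 87.96, and 24.0 TPM among Ctrl bladders, and the Y/T KO bladders gave 8.53, 15.9, and 12.9 TPM. The lowest value of each tissue was a knockout and the highest a control, but the ranges overlapped. The fitted differences were -0.68 (95% interval -1.60 to 0.25) in colon and -1.19 (95% interval -3.10 to 0.71) in bladder, with limma adjusted p-values of 0.619 and 0.527. Without mouse 785 the bladder difference was -0.36. *Amotl1* (ENSMUSG00000013076, chr9:14541966-14645056, minus strand) did not follow *Amotl2*. It was 10.9, 13.99, and 7.86 TPM among Ctrl colons, and the Y/T KO colons gave 9.09, 11.6, and 10.3 TPM, and in bladder 36.3, 33.4, and 29.7 TPM for the Ctrl bladders, whereas the Y/T KO bladders had 32.3, 44.9, and 41.0 TPM. Its differences were small and of opposite sign, -0.05 (95% interval -0.60 to 0.51) in colon and 0.24 (95% interval -0.12 to 0.60) in bladder, where it was 0.25 without mouse 785. *Nuak2* (ENSMUSG00000009772, chr1:132316126-132333488, plus strand) was 24.6, 29.8, and 31.9 TPM for the Ctrl colons, whereas the Y/T KO colons had 23.9, 26.6, and 22.7 TPM. In bladder it was 3.84, 7.84, and 4.92 TPM among Ctrl bladders, and the Y/T KO bladders gave 4.47, 5.35, and 7.10 TPM. The genotypes overlapped in both, with differences of -0.23 (95% interval -0.60 to 0.14) and 0.07 (95% interval -0.67 to 0.80), the latter 0.34 without mouse 785.

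*Axl* and *Crim1* encode membrane proteins, a receptor tyrosine kinase that binds GAS6 and a transmembrane protein that binds bone morphogenetic proteins. The SE of the fitted difference was smaller for *Axl* (0.14 in colon and 0.11 in bladder) than for *Crim1* (0.22 and 0.20). *Axl* (ENSMUSG00000002602, chr7:25757273-25788705, minus strand) was 53.3, 55.6, and 47.4 TPM among Ctrl colons, and the Y/T KO colons gave 46.1, 50.9, and 43.7 TPM. Its bladder values were 133.9, 169.7, and 157.6 TPM for the Ctrl bladders, whereas the Y/T KO bladders had 134.7, 130.7, and 126.2 TPM. In each tissue the lower end was a knockout and the upper end a control, with differences of -0.15 (95% interval -0.47 to 0.17) and -0.23 (95% interval -0.48 to 0.02; limma adjusted p = 0.373), the latter -0.15 without mouse 785. *Crim1* (ENSMUSG00000024074, chr17:78200248-78376592, plus strand) was 14.4, 17.8, and 13.9 TPM for the Ctrl colons, whereas the Y/T KO colons had 15.6, 11.9, and 9.52 TPM. It was 23.1, 32.98, and 21.99 TPM among Ctrl bladders, and the Y/T KO bladders gave 17.9, 22.9, and 17.04 TPM. These ranges overlapped too, and the differences were -0.33 (95% interval -0.85 to 0.18) and -0.42 (95% interval -0.89 to 0.05; limma adjusted p = 0.376), with -0.24 in bladder once mouse 785 was left out. *Fez2*, on the opposite strand across *Crim1*, was at 41.9 to 127.4 TPM.

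Over all 10 classic targets the median fitted difference was -0.19 in colon, where 8 were negative and 2 positive, and -0.32 in bladder, where 6 were negative and 4 positive. The medians over all genes tested were 0.01 and 0.00. Leaving out single libraries moved the bladder median from -0.72 (without Ctrl mouse 784) to 0.05 (without Ctrl mouse 785), so its sign rested on mouse 785. The colon median stayed between -0.25 and -0.13. The change of the knockout effect from colon to bladder was called for 0 of the 10 targets by limma's interaction term, with 0 at an unadjusted p under 0.05 and a lowest adjusted p of 0.525 for *Ankrd1*, where 0.0552% of 16298 genes were called.

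**Figure D3:**
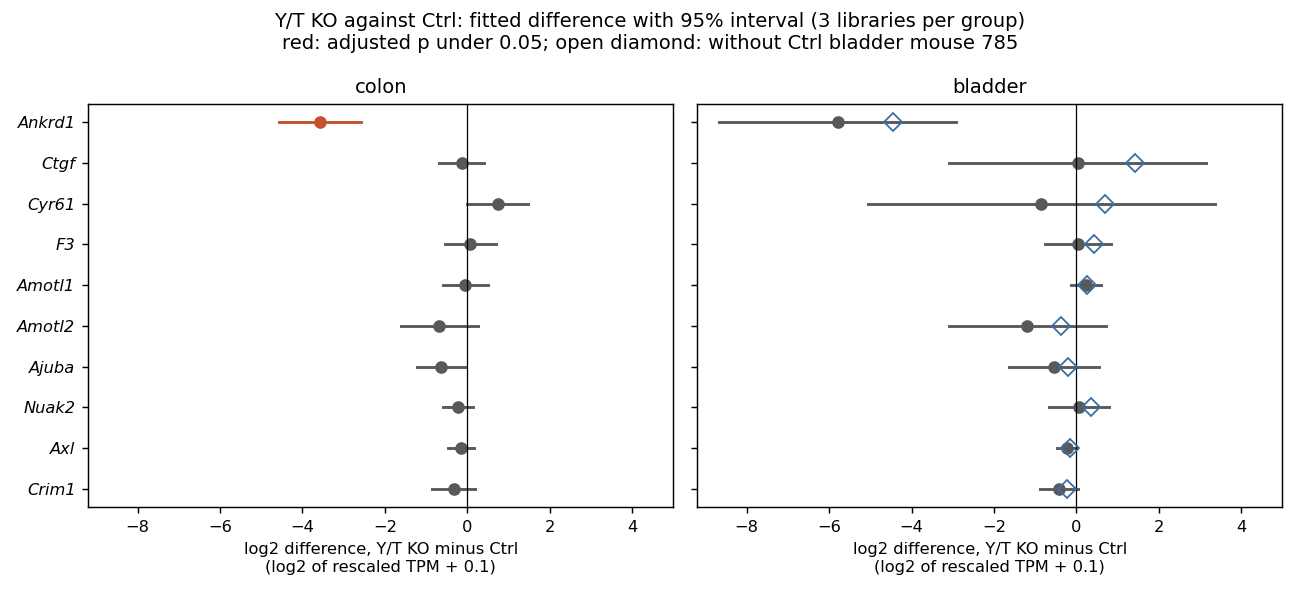
Fitted log2 difference between Y/T KO and Ctrl (x axis, log2 of rescaled TPM + 0.1) with its 95% interval for each classic target in colon and bladder. Red marks the only call, *Ankrd1* in colon at -3.58, and open diamonds give the bladder difference without the Ctrl bladder of mouse 785, which moves *Ctgf* from 0.03 to 1.43 and *Cyr61* from -0.85 to 0.70.

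The Ctrl bladder of mouse 785 held the highest level of 9 of the 10 classic targets among the 6 bladder libraries, whereas it was highest for 21.5% of the 18237 genes tested. For *Ctgf*, *Cyr61*, and *Ankrd1* it was at least 4-fold above the next bladder library, as for 0.115% of all genes. Its *Ctgf* level was 17.04-fold, its *Ankrd1* level 15.7-fold, its *Cyr61* level 13.6-fold, and its *Amotl2* level 5.17-fold the mean of the other 2 Ctrl bladders. *F3* was 2.22-fold, *Ajuba* 1.87-fold, *Nuak2* 1.79-fold, *Crim1* 1.46-fold, *Axl* 1.16-fold, and *Amotl1* 1.01-fold that mean. The ratios thus graded from no difference to many-fold, with those of *Ctgf*, *Ankrd1*, and *Cyr61* well above the rest. Immediate-early genes, which are transcribed within minutes of a stimulus, were high in the same library. It was the highest bladder library for 16 of 17 of these genes, at 1.67-fold (*Klf6*) to 7.21-fold (*Atf3*) the mean of the other Ctrl bladders, with a median of 2.78-fold. Their part in the levels of the classic targets was not tested.

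**Figure D4:**
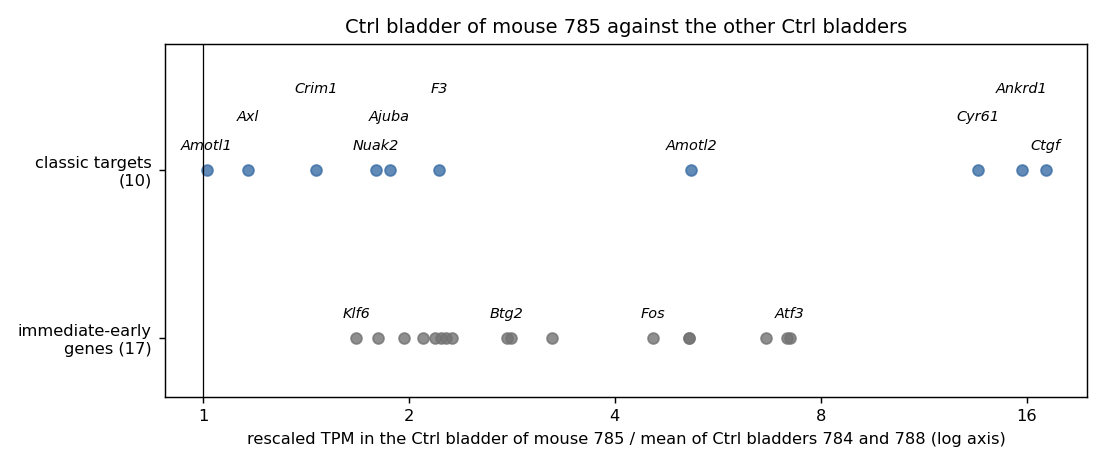
Ratio (log axis) of rescaled TPM in the Ctrl bladder of mouse 785 to the mean of Ctrl bladders 784 and 788, 1 point per gene. *Ctgf*, *Ankrd1*, and *Cyr61* lie at 13.6-fold and above, beyond all 17 immediate-early genes, whose highest ratio is 7.21-fold.

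Within each genotype, the bladder levels of *Ctgf*, *Cyr61*, and *Nuak2*, 3 of the 10 targets, had the order of the summed immediate-early genes, as did 2.45% of the 18237 genes tested. That sum was 385.5, 840, and 1856 TPM in Ctrl mice 784, 788, and 785 and 486.8, 755.2, and 1030 TPM in the knockout mice 782, 783, and 780, and these targets went up through the mice in this order in each genotype. *Ankrd1* did not keep it, since Ctrl mouse 784 had more *Ankrd1* than mouse 788. The sum overlapped between genotypes in bladder, but in colon it was 853.9 to 938.8 TPM in Ctrl and 1016 to 1263 TPM in Y/T KO, without overlap. *Ankrd1* and *Ajuba* thus were low in colon libraries in which the immediate-early sum was high. Ctrl mouse 788, which gave both tissues, had the highest *Ankrd1* level of the 3 Ctrl colons and the lowest of the 3 Ctrl bladders.

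The design also allows each target to be compared between the organs. For this, levels were compared after rescaling over all 12 libraries. In Ctrl mice 6 of the 10 targets were called between bladder and colon, 4 higher in bladder and 2 lower, where 26.2% of 18445 genes were called higher in bladder and 26.3% lower. *Ajuba* was 38.2 ± 17.7 TPM in Ctrl bladder and 7.997 ± 1.65 in Ctrl colon, a fitted difference of 2.14 (95% interval 1.31 to 2.98; limma adjusted p = 0.000601). *Amotl2* differed by 1.91 (limma adjusted p = 0.0323), *Amotl1* by 1.34 (adjusted p = 0.000212), and *Axl* by 1.27 (adjusted p = 3.38e-06) in the same direction. *Amotl1* and *Axl* did so without overlap, at 30.2 ± 3.04 against 12.1 ± 3.49 TPM and 139.9 ± 16.03 against 57.7 ± 5.07 TPM, whereas the *Amotl2* libraries overlapped and its call was lost without Ctrl bladder 785 (1.08; limma adjusted p = 0.0960), Ctrl bladder 788 (2.01; adjusted p = 0.0596), Ctrl colon 786 (1.90; adjusted p = 0.0698), or Ctrl colon 787 (1.64; adjusted p = 0.108).

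The kinase gene *Nuak2* went the other way by a wide margin, at 5.03 ± 1.86 TPM in Ctrl bladder and 31.9 ± 4.22 in Ctrl colon, a difference of -2.69 (95% interval -3.23 to -2.15; limma adjusted p = 3.36e-06). *F3* also was lower in bladder, at 55.4 ± 27.5 against 110.1 ± 22.9 TPM (-1.08; limma adjusted p = 0.0178; libraries overlapped). The *F3* difference was -1.45 without mouse 785 (limma adjusted p = 0.00166), but the call was lost without Ctrl bladder 784 (-0.93; adjusted p = 0.0666), Ctrl bladder 788 (-0.84; adjusted p = 0.0734), or Ctrl colon 787 (-0.94; adjusted p = 0.0669). *Ctgf* did not differ beyond its spread with all libraries (0.07; 95% interval -2.11 to 2.24), but without mouse 785 the difference was -1.32 (limma adjusted p = 0.0472). *Cyr61* turned likewise, from 1.46 (limma adjusted p = 0.373) to -0.08, whereas without Ctrl bladder 784 it was called higher in bladder (3.13; adjusted p = 0.0150). *Ankrd1* was higher in every Ctrl bladder than in every Ctrl colon, at 2.21 (limma adjusted p = 0.0694) with and 0.89 without mouse 785, and it was called without Ctrl bladder 788 (3.05; adjusted p = 0.0209). *Crim1* differed by 0.46 (limma adjusted p = 0.102). On TPM as deposited, without rescaling, the median difference between bladder and colon over all genes was 0.23 in place of -0.03 (6115 called higher and 3409 lower, in place of 4833 and 4851), and *Ankrd1* (2.47) and *Crim1* (0.72) were called as well.

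In Y/T KO mice the tissue contrast had the same sign as in Ctrl mice for *Amotl1* (1.66), *Ajuba* (2.26), *Axl* (1.22), *Nuak2* (-2.37), and *F3* (-1.09), the 5 called of 9 tested, where 26.3% of 18424 genes were called higher in bladder and 26.9% lower. A share of 5 in 9 thus is near that of all genes. *Amotl2* differed by 1.41 (limma adjusted p = 0.0961). *Ankrd1* was too low in both knockout tissues to be tested, at 0.226 ± 0.128 TPM in colon and 0.291 ± 0.283 in bladder.

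**Figure D5:**
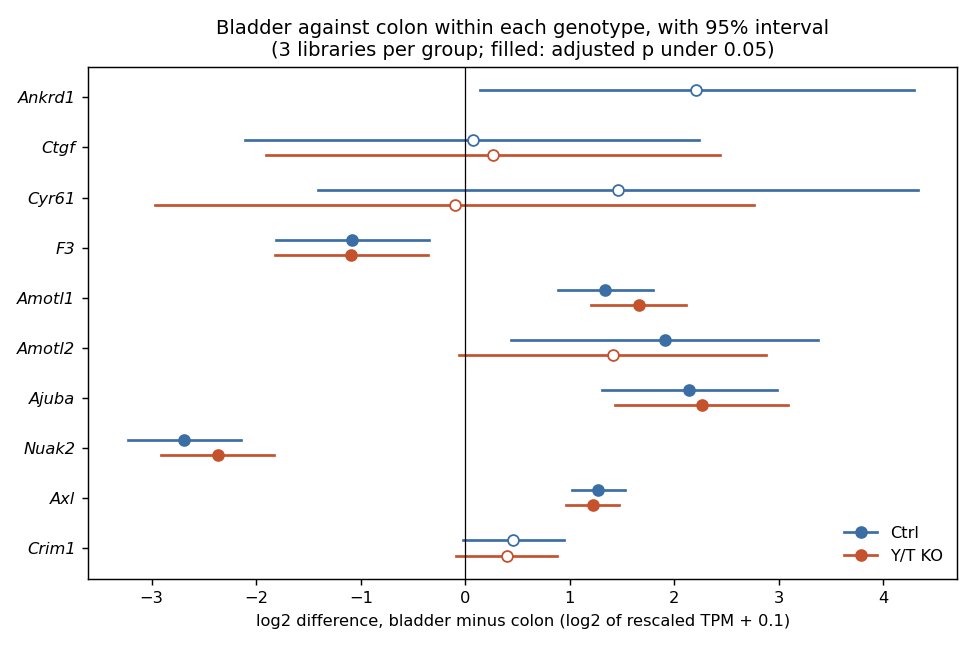
Fitted log2 difference between bladder and colon (x axis, log2 of TPM rescaled over 12 libraries + 0.1) with its 95% interval in Ctrl (blue) and Y/T KO (red) mice, with filled points at an adjusted p under 0.05. *Nuak2* lies at -2.69 and -2.37 and *Ajuba* at 2.14 and 2.26, so each keeps its side in both genotypes, and the intervals of *Ctgf* and *Cyr61* span 0.

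The order of levels among the targets (per length) differed by tissue. In Ctrl colon *F3* was highest (110.1 ± 22.9 TPM), followed by *Ctgf* (98.1 ± 23.7), *Axl* (57.7 ± 5.07), *Nuak2* (31.9 ± 4.22), *Cyr61* (26.8 ± 11.7), *Crim1* (17.04 ± 2.52), *Amotl1* (12.1 ± 3.49), *Ajuba* (7.997 ± 1.65), *Amotl2* (6.95 ± 2.50), and *Ankrd1* (3.94 ± 1.35). Neighbors in this order overlapped between libraries except *Ctgf* and *Axl*, and *Axl* and *Nuak2*. *Ankrd1* was last of the 10 in Ctrl colon and in both knockout tissues, but ranked 5 in Ctrl bladder, at 42.5 ± 61.1 TPM, where mouse 785 set its mean. *Axl* led in Y/T KO bladder at 118.8 ± 4.804 TPM and *F3* in Y/T KO colon at 116.8 ± 42.9 TPM. Each overlapped between libraries with *Ctgf*, the next in order.

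The genes whose levels were most like *Ankrd1* over the 12 libraries, out of 16298 tested in both tissues, were *Kif26a* (Pearson r = 0.938), *Ptprz1* (r = 0.909), and *Slc26a7* (r = 0.901), an unconventional kinesin, a receptor phosphatase, and an anion exchanger. The 12 points share genotype, tissue, and 3 mice, so r is a description. *Slc26a7* was 1.11 to 1.36 TPM in Ctrl colon and 0.0858 to 0.117 in Y/T KO colon, and 1.49 to 3.90 TPM in Ctrl bladder and 0.161 to 0.579 in Y/T KO bladder. *Ptprz1* was 1.93 to 2.70 and 0.231 to 0.698 TPM in colon and 4.71 to 9.37 and 0.598 to 0.711 TPM in bladder. *Kif26a* was 1.51 to 1.96 and 0.435 to 0.965 TPM in colon and 2.95 to 10.2 and 0.680 to 1.15 TPM in bladder. None of these genes overlapped between genotypes in either tissue, and all were highest in mouse 785. They were picked for likeness to *Ankrd1* in these same libraries, so this pattern follows from the pick and is no separate result.

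Another 14 genes of a YAP/TAZ signature that also holds most of the classic targets gave no call in either tissue. In colon 11 were negative and 3 positive (median -0.24), between *Lats2*, the LATS kinase gene (11.1 ± 1.07 and 6.48 ± 0.672 TPM; -0.76; limma adjusted p = 0.280), and *Arhgef17* (0.56; limma adjusted p = 0.505). In bladder 10 were negative and 4 positive (median -0.07), between *Lats2* (-0.52) and *Nt5e* (0.71; limma adjusted p = 0.184), and the median was 0.05 without mouse 785. Of 11 other commonly assayed targets, 5 were negative and 6 positive in colon (median 0.09). Their differences there ran from -0.87 for both *Tead1* and *Vgll3*, a TEAD cofactor, to 1.17 ± 0.35 (SE) for *Areg*, which encodes the EGF receptor ligand amphiregulin (35.1 ± 14.6 TPM in Ctrl and 77.2 ± 25.1 in Y/T KO, without overlap; limma adjusted p = 0.413). In bladder 7 were negative and 4 positive (median -0.46), and the extremes were *Vgll3* (-0.92) and *Edn1* (1.03), which encodes endothelin 1 (limma adjusted p = 0.553 and 0.440). Without mouse 785 the median was -0.16, and *Vgll3*, at 50.9 TPM as deposited in that library and 8.73 and 12.6 in the other Ctrl bladders, was -0.16.

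Upstream of the targets, 8 of the 10 co-activator and TEAD partner genes were tested in colon and 9 in bladder, with no call. The differences ran from -0.87 for both *Tead1* and *Vgll3* to 0.50 for *Tead4* in colon, and from -1.05 for *Tead2* (25.9 ± 6.55 and 12.3 ± 2.46 TPM; limma adjusted p = 0.149) to 0.24 for *Wwtr1* in bladder, and 8 of 9 were negative in bladder (median -0.54, or -0.33 with 7 of 9 negative without mouse 785). Some genes stand in more than 1 list, so their values are not separate observations. *Tead1* and *Vgll3* are also among the other commonly assayed targets, and *Lats2* is both a signature gene and a Hippo regulator. The 16 Hippo kinases and upstream regulators tested gave no call, with medians of -0.13 in colon and -0.07 in bladder (-0.03 without mouse 785), from *Lats2* (-0.76) to *Wwc1* (0.41) in colon and from *Limd1* (-0.77) to *Amot* (0.61) in bladder. Of the paralogs and ligands of the classic targets, 14 were tested and none was called, with a bladder median of -0.17 and of -0.10 without mouse 785. The CCN paralog *Nov* was 80.3 ± 4.11 TPM in Ctrl colon and 29.1 ± 7.41 in Y/T KO colon (-1.49; limma adjusted p = 0.0569), and 10.2 ± 0.355 and 17.03 ± 5.62 TPM in bladder (0.68; limma adjusted p = 0.298). Another paralog, *Wisp2*, lay on the opposite side in each tissue, at 1.79 in colon and -1.56 in bladder (limma adjusted p = 0.413 and 0.279). The *Ankrd1* paralog *Ankrd23* differed by 0.41 in colon and 1.76 in bladder (limma adjusted p = 0.387), neither in the direction of *Ankrd1*. In bladder it was high in Y/T KO mice 783 and 780 (66.2 and 76.7 TPM as deposited) and not in mouse 782 (9.59 TPM), and the striated muscle markers moved with it (3538, 3421, and 125.4 TPM in these mice), whose part in the result was not tested. *F7*, whose product binds tissue factor, differed by -1.28 and -1.68.

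SRF targets of smooth muscle (17 genes), which share actin cues with YAP and TAZ, had no call but were mostly negative: 16 of 17 in colon (median -0.51) and 17 of 17 in bladder (median -0.55, or -0.52 without mouse 785). This list holds all 7 smooth muscle markers summed above, so their lower sums and these differences are not separate observations. It also holds *Srf* itself and *Myocd*, the gene of an SRF coactivator. *Myh11* had the lowest value in colon (385 ± 25.9 and 195.8 ± 28.8 TPM; -0.98; limma adjusted p = 0.0958) and *Actg2* in bladder (-1.16; limma adjusted p = 0.187), and the highest were *Srf* (0.09) in colon and *Lmod1* (-0.19) in bladder. Immediate-early genes (17 tested) were positive for 15 in colon (median 0.62, from *Klf6* at -0.06 to *Fosl1* at 2.64 with a limma adjusted p of 0.143) and for 6 in bladder (median -0.24, from *Junb* at -1.82 with a limma adjusted p of 0.118 to *Dusp1* at 0.42), with no call in either tissue. The bladder sign of this list rested on mouse 785, without which 12 of 16 tested were positive (median 0.30). The median of the classic targets (-0.19 and -0.32) lay between those of these lists in both tissues, as did its value of 0.05 in bladder without mouse 785.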

How the data were processed

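RNA sequencing of whole colon and bladder gave 12 libraries, grouped by tissue and genotype from their labels. Per the labels, stranded mRNA libraries were aligned to GRCm38, and the submitters' processing notes name HISAT2 and StringTie. The authors deposited, for each library, TPM, FPKM, and coverage (a signal of mean reads per base) of each gene; versions are not given in the sources used here. TPM was used throughout, summed by gene ID, with FPKM as an alternative. Read counts were not used here. The deposited coordinates equal those of GENCODE M21 except for *Ankrd1*. Aligned bases were taken from the deposited coverage and FPKM, whose ratio is set by depth. No counting error of a single value was estimated, so p-values rest on the spread between mice.

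TPM was divided by median-of-ratios size factors, filtered at 0.5 TPM in 3 of the 6 libraries of a tissue, and genotype was fitted to log2(TPM + 0.1) in limma 3.58.1 (R 4.3.3; eBayes with trend and robust options; Benjamini-Hochberg adjustment over all genes tested; two-sided tests). Tissue contrasts and the interaction came from 1 fit of 12 libraries with 4 group means. Promoters and motifs were read with Python 3.11.15. The fit was also run on simulated data, drawn independently for each gene and library with the real means and spreads. No simulated library stood apart as the Ctrl bladder of mouse 785 did. That run therefore cannot speak for results that turn on 1 library.

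Mouse numbers pair colon and bladder of the same animal. Deviations of same-mouse libraries from their group means correlated across genes at r = -0.02 (mouse 788), 0.09 (mouse 783), and 0.06 (mouse 780), so the mouse was also fitted as a block (within-mouse correlation 0.0489). The other alternatives were pseudocounts of 0.5 and 1 TPM, no filter, a mean of at least 1 TPM, TPM without rescaling, FPKM, eBayes without trend and robust options, all libraries in 1 fit, an adjusted p under 0.1, and each library left out. Gene lists without mouse 785 were added after seeing the data. Other genes named are, from each list, those called and otherwise the lowest and the highest difference in each tissue, and the 3 genes most correlated with the target of lowest adjusted p. The 10 targets and all lists were chosen with earlier results of these data known. A gene of the list of other commonly assayed targets is not reported here.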

Additional observations from a re-analysis of the deposited data

How the results depend on the processing

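The call of *Ankrd1* in colon held with pseudocounts of 0.5 and 1 TPM, a mean of at least 1 TPM, TPM without rescaling, FPKM, and eBayes without trend and robust options (adjusted p from 0.0301 to 0.0483). With these pseudocounts the fitted difference of *Ankrd1* shrank from -3.58 to -2.48 and -1.88 in colon. In bladder it shrank from -5.79 to -4.70 and -4.03. Called targets in colon numbered 0 without a filter, 0 with all 12 libraries in 1 fit, and 0 with the mouse as a replicate block, and in bladder the last of these gave 1 and the fit of all libraries gave 1 (*Ankrd1*). The block itself changed no call of a single target, since the 12-library fit without it gave *Ankrd1* 0.156 in colon and 0.0324 in bladder and with it 0.152 and 0.0339 (limma adjusted p). With single libraries left out, the colon count was 0 to 1, being 1 only without Y/T KO mouse 759. Without a Ctrl colon library *Ankrd1* no longer passed the filter. Its call was lost without Y/T KO mouse 783 or 780 but kept without mouse 759 (limma adjusted p = 0.042), though each of these fits held as many libraries. The interaction count was 0 under every alternative run, and 4 to 6 targets were called between Ctrl tissues with a library left out and 8 on TPM without rescaling.

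With all libraries kept, 331 values of single targets kept their direction and side of the threshold, 4 passed it newly, 3 lost it, and 2 changed sign. The *F3* interaction turned to 0.0033 on TPM without rescaling and 0.0070 with the block. With 1 library left out, differences changed sign, most of them near 0 but *Cyr61* in bladder (-0.85), *Cyr61* between Ctrl tissues (1.46), and *Amotl2* for the interaction (-0.49) with all libraries kept. In colon *Ctgf* ran from -0.33 to 0.044, *Amotl1* from -0.26 to 0.14, and *F3* from -0.21 to 0.24. In bladder *Ctgf* ran from -0.94 to 1.43, *Cyr61* from -2.52 to 0.70, *Nuak2* from -0.16 to 0.34, and *F3* from -0.20 to 0.42. For the interaction the ranges were -0.78 to 1.59 (*Ctgf*), -1.22 to 0.33 (*Amotl2*), -0.15 to 0.017 (*Axl*), -0.24 to 0.13 (*Crim1*), -0.30 to 0.44 (*Ajuba*), and -0.24 to 0.37 (*F3*), and between Ctrl tissues -1.32 to 1.04 (*Ctgf*) and -0.08 to 3.13 (*Cyr61*). With 3 libraries per group and no read counts, differences of the size seen for most targets could not be told from the spread between mice.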
